A study of Homo sapiens with 8 samples.

Results

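The 10 genes described here encode the main regulators and several working parts of antigen presentation: CIITA, RFX5, RFXAP, RFXANK, NLRC5, IRF1, CD74, CTSS, B2M and TAP1. They were chosen by gene symbol, with earlier results of these data known. Each matched 1 placed row among 18143 placed labels of 63967 labels in the table. RNA-seq had been performed on Raji, a Burkitt lymphoma B-cell line sensitive to rituximab, and on Raji-4RH, the rituximab-resistant line derived from it. Both lines were treated for 24 h with DMSO, the vehicle, or with 3 μM chidamide, a benzamide inhibitor of histone deacetylases (HDACs). There were 2 libraries in each of the 4 groups (Raji DMSO, Raji chidamide, Raji-4RH DMSO and Raji-4RH chidamide). The resistant phenotype is represented by 1 line. The labels do not say whether replicates came from separate cultures, so p-values measure only the spread between these libraries, which may be technical. In bulk RNA, fewer cells of a kind and less RNA per cell cannot be told apart.

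MHC class I molecules display peptides made by the proteasome and carried into the endoplasmic reticulum by the TAP transporter, and they need the light chain B2M to reach the surface. MHC class II molecules, which B cells use to present captured antigen to helper T cells, are escorted by the invariant chain CD74 until lysosomal proteases such as CTSS trim it away. CIITA does not bind DNA itself: it docks on the RFX complex (RFX5, RFXAP and RFXANK) and its partners at class II promoters, and its relative NLRC5 does the same at class I promoters. IRF1 is a transcription factor of the interferon response that acts on class I genes and on one of the promoters of CIITA.

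Values are FPKM, reads scaled to the length of the gene and the depth of the library. The length is 1 value per gene, whichever of its transcripts were made, such as 6089 bases for B2M, with 15 annotated transcripts. Levels of different genes are therefore only roughly comparable. Library totals ran from 13991697 to 21193441 reads, the lowest in Raji-4RH chidamide replicate 1. In the deposited table, the values of many genes stood below the row of their label. Every value here was taken from the row given by the rule for choosing the genes. The distance was 0 rows for RFXANK, IRF1 and CD74, 1 row for RFX5, RFXAP and NLRC5, 3 rows for CTSS and B2M, 4 rows for TAP1 and 5 rows for CIITA. As a check, the mean log2 reads of protein-coding labels minus those of other labels were computed around each gene, at 17 distances. Up to 200 labels on each side were used, fewer where the distance changed nearby. B2M had 201 protein-coding and 8 other labels, and CIITA 221 and 54. The other labels numbered only 2 for RFXANK, NLRC5 and CD74 and 4 for RFX5, so the check is weak there. The distance used gave the largest difference for 8 of the 10 genes. The exceptions were RFXANK, with 6.31 at the distance used against 7.04 at 9 rows, and NLRC5, with 4.52 against 4.75 at 14 rows. B2M lies 8 labels and CIITA 74 labels from a change of distance.

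**Figure D1:**
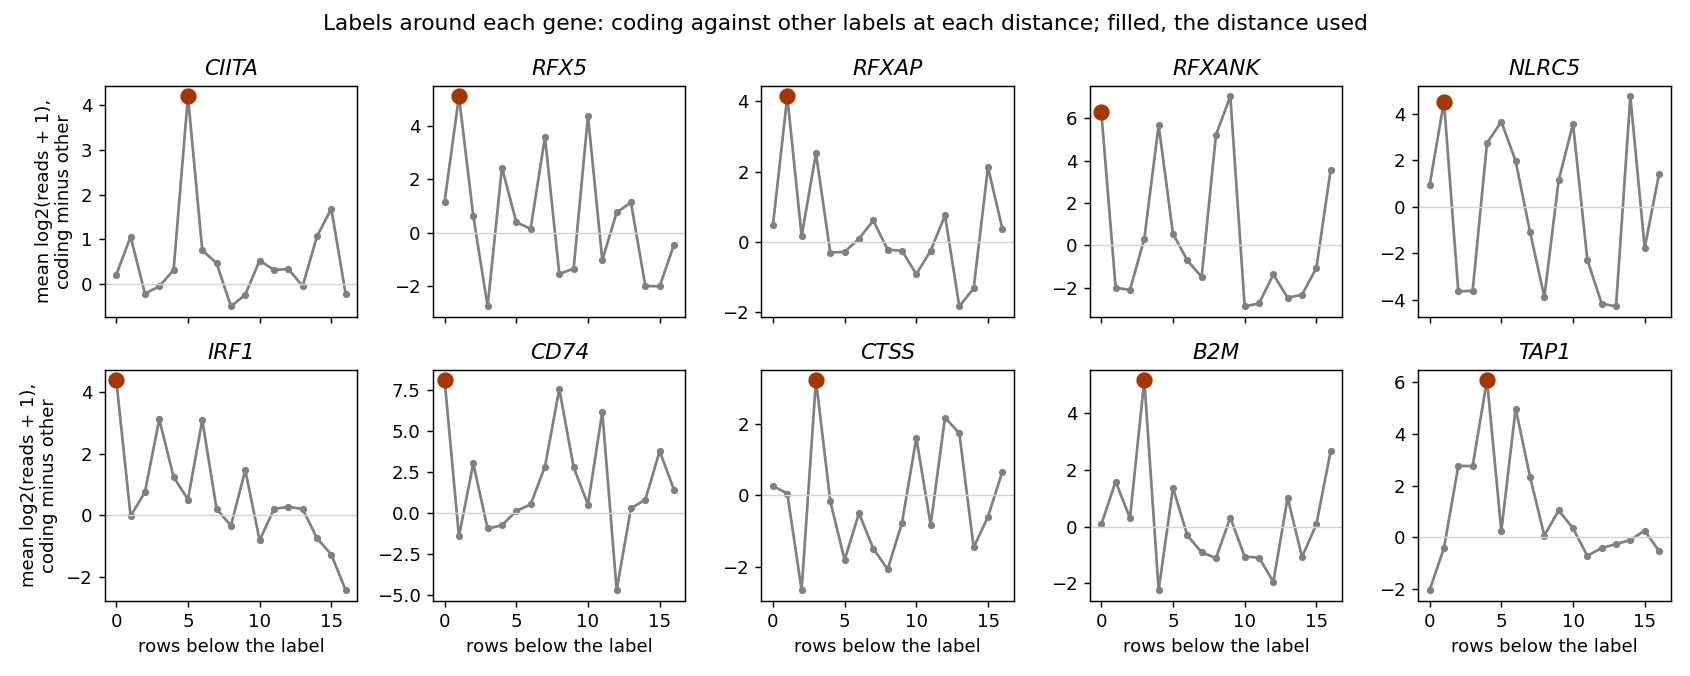
Check of the row given to each gene. The x axis is the distance in rows below the label. The y axis is the mean log2(reads + 1) of protein-coding labels minus that of other labels, among up to 200 labels on each side. The filled point is the distance used, which was the highest for 8 of the 10 genes and not for RFXANK or NLRC5.

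Promoter windows from RefSeq (GRCh38.p14, 250 bases before the transcript start to 50 after) were matched for 7 of the 10 genes. CIITA, NLRC5 and CTSS had no entry. The windows printed are those of 4 genes that rose with chidamide in both lines and of RFXAP, which fell in both. Those of RFX5 and RFXANK were matched too but are not printed. They lie at chr5:132490724-132491023 (- strand) for IRF1, chr5:150412861-150413160 (- strand) for CD74, chr15:44711267-44711566 (+ strand) for B2M, chr6:32853655-32853954 (- strand) for TAP1 and chr13:36818972-36819271 (+ strand) for RFXAP. Capitals mark every match, on either strand, to CCAAT (the Y box core), the interferon-stimulated response element (ISRE, a pair of GAAA runs with any 2 bases between them), TTCNNNGAA (a gamma-activated site), CACGTG (an E box) or GCAAC (a piece of the X box).
IRF1: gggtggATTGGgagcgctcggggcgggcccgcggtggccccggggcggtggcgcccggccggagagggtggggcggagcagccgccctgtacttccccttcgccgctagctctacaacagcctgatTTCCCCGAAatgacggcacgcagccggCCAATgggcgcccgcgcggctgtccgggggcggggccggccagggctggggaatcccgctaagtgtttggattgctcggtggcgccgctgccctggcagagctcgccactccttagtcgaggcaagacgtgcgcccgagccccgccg
CD74: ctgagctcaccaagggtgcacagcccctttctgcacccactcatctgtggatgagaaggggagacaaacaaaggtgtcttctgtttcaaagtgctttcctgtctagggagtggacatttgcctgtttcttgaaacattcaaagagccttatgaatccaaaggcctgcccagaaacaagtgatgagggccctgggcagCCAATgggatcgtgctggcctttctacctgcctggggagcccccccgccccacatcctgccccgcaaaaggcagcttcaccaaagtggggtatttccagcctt
B2M: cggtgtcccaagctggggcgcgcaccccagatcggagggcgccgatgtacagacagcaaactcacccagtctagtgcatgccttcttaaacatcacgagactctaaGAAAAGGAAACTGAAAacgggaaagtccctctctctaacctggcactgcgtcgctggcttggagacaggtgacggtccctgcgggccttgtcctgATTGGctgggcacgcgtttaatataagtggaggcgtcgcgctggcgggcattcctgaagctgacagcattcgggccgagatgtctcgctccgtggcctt
TAP1: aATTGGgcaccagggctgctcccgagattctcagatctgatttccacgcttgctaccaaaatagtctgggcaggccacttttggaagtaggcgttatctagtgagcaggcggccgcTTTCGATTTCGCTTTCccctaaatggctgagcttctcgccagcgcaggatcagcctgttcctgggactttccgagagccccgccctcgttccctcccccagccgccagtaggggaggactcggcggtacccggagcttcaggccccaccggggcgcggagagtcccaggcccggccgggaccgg
RFXAP: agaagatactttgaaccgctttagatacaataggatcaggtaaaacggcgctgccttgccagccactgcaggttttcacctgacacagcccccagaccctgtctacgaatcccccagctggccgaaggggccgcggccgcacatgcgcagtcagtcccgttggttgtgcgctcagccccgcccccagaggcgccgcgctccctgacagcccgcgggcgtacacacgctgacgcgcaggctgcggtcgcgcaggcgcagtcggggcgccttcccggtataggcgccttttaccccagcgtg

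In B2M, the ISRE motif matched in a pair of overlapping places that begin 144 and 138 bases before the start, and CCAAT matched on the reverse strand 49 bases before it. The start used for TAP1, from 1 of 2 RefSeq windows, lies 274 bases inside the gene as GENCODE annotates it. The TAP1 window held the ISRE motif on the reverse strand 134 and 128 bases before that start, again overlapping. This motif was present in 2 of the 7 windows and in 3.57% of 34943 windows of the same length over the genome. IRF1 held TTCNNNGAA at 124 bases before the start, a motif found in 7.66% of all windows. CD74 held CCAAT at 53 bases before the start. CCAAT was present in 5 of the 7 windows (B2M, CD74, IRF1, RFX5 and TAP1) and in 34.6% of all windows, GCAAC in RFX5 only among the 7 and in 33.6% of all windows, and CACGTG in none of the 7 and in 7.23% of all windows. The windows of RFXAP and of RFXANK, which was not called with chidamide in either line, held none of the 5 motifs. A match describes letters in the window and is not a measured binding site.

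CIITA, the transactivator without which class II genes stay silent, differed most between the lines in its response. CIITA (ENSG00000179583, chromosome 16 from 10866222 to 10943021 in GRCh38, GENCODE v29) was at 15.5 and 14.5 FPKM in the Raji DMSO libraries and at 45.9 and 48.3 FPKM in the Raji chidamide libraries. In Raji-4RH it was at 11.6 and 11.5 FPKM with DMSO and at 14.3 and 16.05 FPKM with chidamide. Both chidamide groups lay above their DMSO groups without overlap, but the treated Raji-4RH libraries reached only the level of untreated Raji. CIITA rose 3.14-fold in Raji, by 1.59 on the log2(FPKM + 1) scale (standard error 0.067, adjusted p = 6.4e-07, limma with Benjamini-Hochberg adjustment over all 10710 genes tested), the rise ranking at 161 of 10710 genes. In Raji-4RH it rose 1.31-fold, by 0.36 (standard error 0.067, adjusted p = 0.0012), at rank 3541. The effect in Raji-4RH minus that in Raji was -1.23 (95% interval -1.44 to -1.01, adjusted p = 3.4e-05). The gene has 18 annotated transcripts with 14 different starts, whose reads are summed, so promoters of CIITA were not told apart. Read from the row of its own label, CIITA showed a log2 change of -0.043 in Raji and 0.027 in Raji-4RH, so this result rests on the distance of 5 rows.

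**Figure D2:**
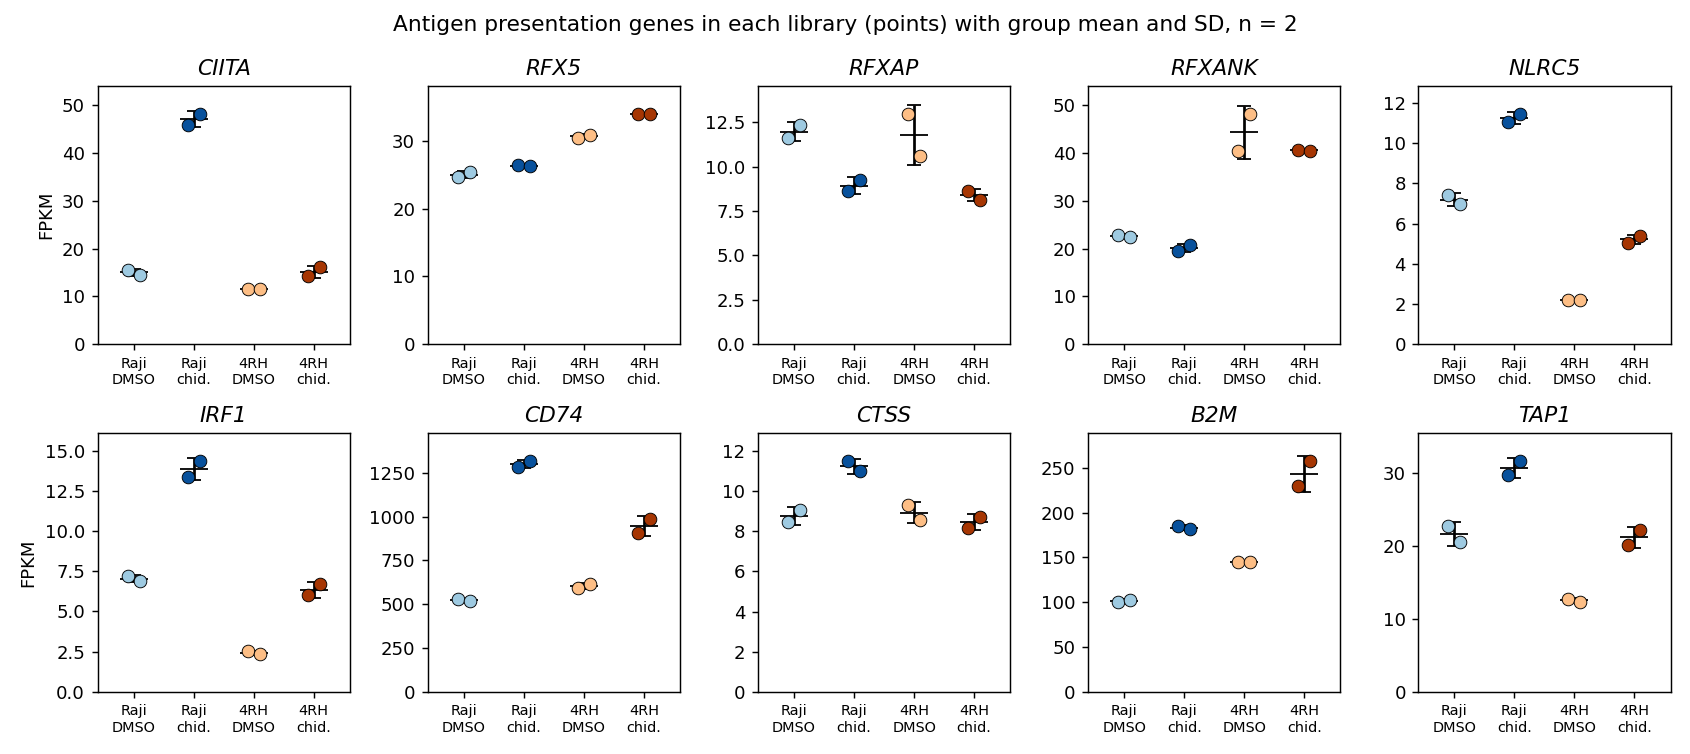
FPKM of the 10 genes in every library. Each panel is a gene, the y axis is FPKM on a linear scale from 0, points are libraries, horizontal bars are group means and whiskers SD (n = 2; chid. is chidamide and 4RH is Raji-4RH). CIITA stands at 45.9 and 48.3 FPKM in Raji with chidamide and at or below 16.05 FPKM in every other library.

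The RFX complex, the DNA-bound platform on which CIITA and NLRC5 assemble, did not move as a unit with chidamide. RFX5 (ENSG00000143390, chromosome 1 from 151340640 to 151347357), the subunit with the DNA-binding domain, was at 24.7 and 25.4 FPKM in Raji DMSO, 26.4 and 26.3 in Raji chidamide, 30.5 and 31.0 in Raji-4RH DMSO and 34.0 and 34.1 with chidamide in Raji-4RH. The ranges did not overlap, but the steps were small. RFX5 rose by 0.14 in Raji-4RH (standard error 0.047, adjusted p = 0.021, limma), near the median of 0.093 over all genes tested. That call was lost when libraries were centred on their medians (0.066, adjusted p = 0.24), with only the libraries compared (adjusted p = 0.058) and without either Raji-4RH DMSO library (adjusted p = 0.11 and 0.073). In Raji the log2 change of RFX5 was 0.070 (95% interval -0.037 to 0.18, adjusted p = 0.23). After quantile normalization that change was called (0.16, adjusted p = 0.019), as was the difference between the lines (0.23, adjusted p = 0.025, limma). Over the settings the Raji-4RH rise ran from 0.066 to 0.39.

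RFXAP (ENSG00000133111, chromosome 13 from 36819224 to 36829104), which joins the other subunits, was the only one of the 10 genes called lower with chidamide. It was at 11.6 and 12.3 FPKM in Raji DMSO, 8.61 and 9.26 in Raji chidamide, 12.99 and 10.6 in Raji-4RH DMSO and 8.65 and 8.15 with chidamide in Raji-4RH. Both chidamide groups were below their DMSO groups without overlap. RFXAP fell by 0.38 in Raji (standard error 0.090, adjusted p = 0.0062) and by 0.44 in Raji-4RH (standard error 0.090, adjusted p = 0.0021, limma). It had the fewest reads of the 10 genes, 279 in the shallowest library.

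RFXANK (ENSG00000064490, chromosome 19 from 19192229 to 19201869), the ankyrin-repeat subunit, separated the lines more than the treatments. It was at 22.9 and 22.4 FPKM in Raji DMSO, 19.5 and 20.7 in Raji chidamide, 40.4 and 48.3 in Raji-4RH DMSO and 40.6 and 40.5 with chidamide in Raji-4RH. All 4 Raji-4RH libraries lay above all 4 Raji libraries. The log2 change with chidamide was -0.17 in Raji (95% interval -0.35 to 0.014, adjusted p = 0.10) and -0.12 in Raji-4RH (95% interval -0.30 to 0.063, adjusted p = 0.20, limma), and neither was called. The Raji change was called with only the libraries compared (adjusted p = 0.026) and without either Raji-4RH DMSO library (adjusted p = 0.040 for each). The Raji-4RH change was called without Raji-4RH DMSO replicate 1 (-0.25, adjusted p = 0.018) and turned to 0.16 after quantile normalization.

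NLRC5 and IRF1, which act on class I genes, began lower in Raji-4RH and rose in both lines. NLRC5 (ENSG00000140853, chromosome 16 from 56989485 to 57083531) was at 7.43 and 6.95 FPKM in Raji DMSO, 11.1 and 11.5 in Raji chidamide, 2.17 and 2.22 in Raji-4RH DMSO and 5.05 and 5.38 with chidamide in Raji-4RH. The 4 groups did not overlap, and treated Raji-4RH stayed below untreated Raji. NLRC5 rose by 0.58 in Raji (standard error 0.059, adjusted p = 6.7e-05) and by 0.96 in Raji-4RH (standard error 0.059, adjusted p = 1.6e-06, limma). It was the only one of the 10 genes whose rise was called larger in Raji-4RH, by 0.38 (95% interval 0.18 to 0.57, adjusted p = 0.0067). After quantile normalization that difference was 0.20 and was not called (adjusted p = 0.073).

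IRF1 (ENSG00000125347, chromosome 5 from 132481609 to 132490798) was at 7.21 and 6.88 FPKM in Raji DMSO, 13.4 and 14.4 in Raji chidamide, 2.50 and 2.33 in Raji-4RH DMSO and 6.002 and 6.69 with chidamide in Raji-4RH. As with NLRC5, the treated Raji-4RH libraries did not reach the untreated Raji libraries. IRF1 rose by 0.88 in Raji (standard error 0.069, adjusted p = 1.6e-05) and by 1.10 in Raji-4RH (standard error 0.069, adjusted p = 1.7e-06, limma). The difference of 0.22 (95% interval -0.0053 to 0.44, adjusted p = 0.096) was not called. It was called with a pseudocount of 0.1 (adjusted p = 0.024), with voom on recovered reads (adjusted p = 0.011) and without Raji-4RH chidamide replicate 1 (adjusted p = 0.035).

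CD74, the invariant chain, had the highest FPKM of the 10 genes in every group, and its response was larger in Raji, like that of CIITA. CD74 (ENSG00000019582, chromosome 5 from 150401637 to 150412929) was at 529 and 516 FPKM in Raji DMSO, 1284 and 1317 in Raji chidamide, 590 and 615 in Raji-4RH DMSO and 905 and 985 with chidamide in Raji-4RH. The 4 groups did not overlap, and the order of the lines turned with treatment, Raji-4RH being above Raji with DMSO and below it with chidamide. The DMSO difference was small (0.21 on the log2 scale). Its call was lost in several settings, among them quantile normalization (0.055, adjusted p = 0.52, limma). CD74 rose 2.49-fold in Raji, by 1.31 on the log2 scale (standard error 0.067, adjusted p = 1.7e-06), and 1.57-fold in Raji-4RH, by 0.65 (standard error 0.067, adjusted p = 3.4e-05, limma). The effect in Raji-4RH minus that in Raji was -0.67 (95% interval -0.89 to -0.45, adjusted p = 0.00072). Quantile normalization lowered the Raji-4RH rise to 0.37, which was still called.

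CTSS (ENSG00000163131, chromosome 1 from 150730196 to 150765957), the protease that removes the last part of the invariant chain, changed in Raji. It was at 8.46 and 9.09 FPKM in Raji DMSO and at 11.5 and 10.99 in Raji chidamide, and at 9.32 and 8.56 in Raji-4RH DMSO and 8.16 and 8.73 with chidamide in Raji-4RH. The Raji groups did not overlap and the Raji-4RH groups did. CTSS rose by 0.33 in Raji (standard error 0.066, adjusted p = 0.0028, limma), and its log2 change in Raji-4RH was -0.073 (95% interval -0.22 to 0.078, adjusted p = 0.34). The effect in Raji-4RH minus that in Raji was -0.40 (95% interval -0.61 to -0.19, adjusted p = 0.0082).

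B2M and TAP1, parts of class I presentation, rose in both lines. B2M (ENSG00000166710, chromosome 15 from 44711487 to 44718877) was at 99.7 and 102 FPKM in Raji DMSO, 185 and 182 in Raji chidamide, 145 and 145 in Raji-4RH DMSO and 229 and 258 with chidamide in Raji-4RH. The 4 groups did not overlap, and treated Raji-4RH was highest. B2M rose by 0.85 in Raji (standard error 0.064, adjusted p = 1.3e-05) and by 0.74 in Raji-4RH (standard error 0.064, adjusted p = 1.1e-05, limma). The difference of -0.11 (95% interval -0.32 to 0.099, adjusted p = 0.34) was not called, and was called only without Raji-4RH chidamide replicate 2 among the libraries left out (-0.19, adjusted p = 0.015).

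TAP1 (ENSG00000168394, chromosome 6 from 32845209 to 32853978), a subunit of the peptide transporter, was at 22.8 and 20.5 FPKM in Raji DMSO, 29.8 and 31.6 in Raji chidamide, 12.8 and 12.3 in Raji-4RH DMSO and 20.2 and 22.2 with chidamide in Raji-4RH. The treated Raji-4RH range overlapped that of untreated Raji. TAP1 rose by 0.49 in Raji (standard error 0.071, adjusted p = 0.00049) and by 0.71 in Raji-4RH (standard error 0.071, adjusted p = 2.7e-05, limma). The difference of 0.22 (95% interval -0.0074 to 0.45, adjusted p = 0.099) was called after quantile normalization (adjusted p = 0.028) and without Raji-4RH chidamide replicate 1 (adjusted p = 0.030). The table held 8 IDs named TAP1, of which 1 was placed, and reads of the copies on alternate haplotypes may be split between them.

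**Figure D3:**
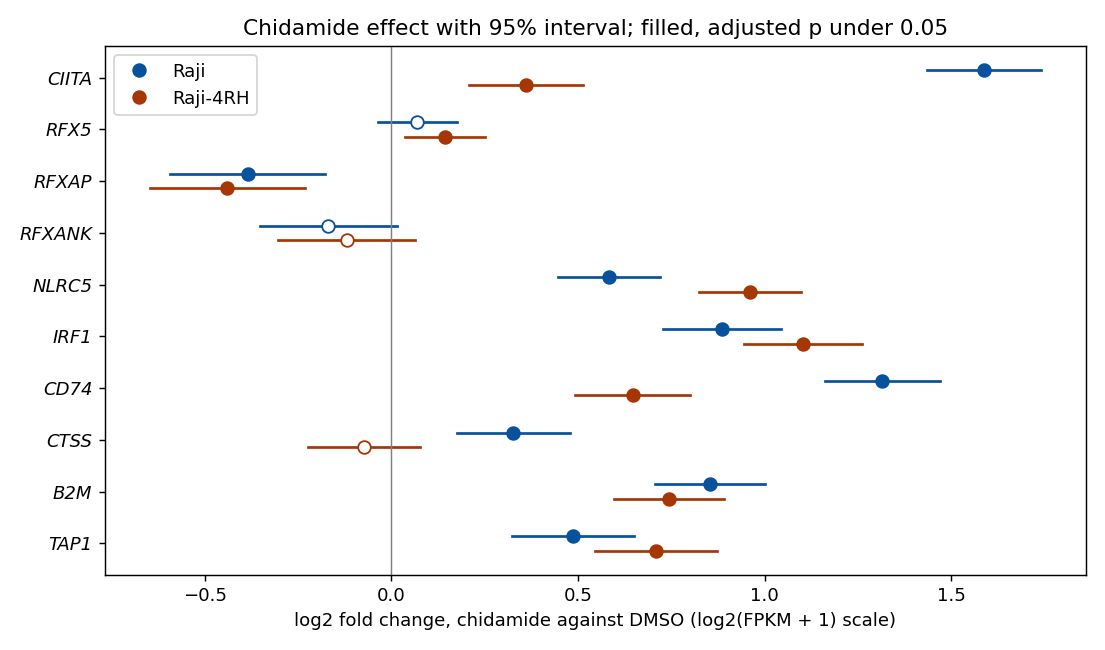
Response of the 10 genes to chidamide. The x axis is the log2 fold change of chidamide against DMSO on the log2(FPKM + 1) scale in Raji (blue) and Raji-4RH (brown), lines are 95% intervals, and filled points have an adjusted p under 0.05. The largest gap between the lines is in CIITA, 1.59 against 0.36.

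Counted together, 8 of the 10 genes were called in Raji-4RH, 7 higher and 1 lower, where 74.9% of all genes tested were called, 43.3% as higher and 31.6% as lower. In Raji, 8 of the 10 were called, 7 higher and 1 lower, against 60.0% of all genes, 31.5% as higher and 28.5% as lower. The difference between the lines was called for 4 of the 10, 1 higher (NLRC5) and 3 lower (CIITA, CD74 and CTSS) in Raji-4RH, against 48.8% of all genes, 27.2% higher and 21.7% lower. A share of called genes near that of all genes is not a result about the list, and the 2 chidamide comparisons and their difference use the same libraries. The libraries of the treated and untreated groups did not overlap for 8 of the 10 genes in Raji-4RH, against 86.5% of all genes, and for 10 of the 10 in Raji, against 82.8%. An exact two-sided permutation test of 2 libraries against 2 reaches no p below 0.333, so the calls depend on limma pooling the spread over genes.

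Without chidamide, Raji-4RH and Raji differed in 8 of the 10 genes, 4 higher and 4 lower in Raji-4RH, against 73.6% of all genes tested, 41.2% as higher and 32.4% as lower. Lower in Raji-4RH were NLRC5 by a log2 difference of -1.36 (standard error 0.059, adjusted p = 1.8e-07), IRF1 at -1.24 (standard error 0.069), TAP1 at -0.74 (standard error 0.071) and CIITA at -0.35 (standard error 0.067, adjusted p = 0.0015, limma). Higher were RFXANK at 0.93 (standard error 0.080), B2M at 0.52 (standard error 0.064), RFX5 at 0.29 (standard error 0.047) and CD74 at 0.21 (standard error 0.067, adjusted p = 0.022, limma). The CD74 call was not kept without the filter on low values (adjusted p = 0.077), after quantile normalization (0.055, adjusted p = 0.52), after median centring (adjusted p = 0.066), or without any 1 of 6 libraries, those of the Raji DMSO, Raji chidamide and Raji-4RH DMSO groups (adjusted p from 0.052 to 0.14). RFXAP (-0.025, 95% interval -0.23 to 0.18) and CTSS (0.024, 95% interval -0.13 to 0.18) were not called. The libraries of the lines did not overlap for 8 of the 10 genes, against 88.5% of all genes.

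Under chidamide, 9 of the 10 genes differed, 3 higher and 6 lower in Raji-4RH, against 79.3% of all genes, 44.3% as higher and 35.0% as lower. CIITA was lower in Raji-4RH by a log2 difference of -1.57 (standard error 0.067, adjusted p = 1.2e-07), IRF1 of -1.02, NLRC5 of -0.98, TAP1 of -0.52, CD74 of -0.46 and CTSS of -0.38. RFXANK was higher by 0.98, B2M by 0.41 and RFX5 by 0.36 (limma). RFXAP was not called (-0.080, 95% interval -0.29 to 0.13). It was also the gene whose libraries overlapped, so 9 of the 10 did not, against 88.5% of all genes.

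Ordered by mean FPKM, CD74 and B2M led in all 4 groups. This order depends on the gene lengths used as well as on the RNA. CIITA moved from sixth among the 10 in Raji DMSO to the third in Raji chidamide, at 47.1 ± 1.67 FPKM (SD, n = 2), and stood in the seventh place in Raji-4RH DMSO, at 11.6 ± 0.0493, and in the sixth in Raji-4RH chidamide, at 15.2 ± 1.26. In Raji-4RH DMSO its neighbour RFXAP (11.8 ± 1.69) overlapped with it, as did RFXAP with TAP1 (12.6 FPKM). NLRC5 and IRF1 were the lowest in Raji DMSO and overlapped, at 7.19 ± 0.336 and 7.05 ± 0.235 FPKM. They were also the lowest in both Raji-4RH groups, where NLRC5 was below IRF1 without overlap.

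The 5 genes whose log2(FPKM + 1) over the 8 libraries was most like that of CIITA, among 6613 tested genes whose mean reached 5 FPKM, were DUSP22 (Pearson r = 0.999), TRAF1 (0.998), CD83 (0.997), CXCL10 (0.996) and FLI1 (0.995). The 8 libraries form 4 groups of 2 and Raji chidamide stands apart from the rest, so the points are not independent and these values are a description. CD83, a surface protein of activated B cells and dendritic cells, had group means of 23.6 FPKM in Raji DMSO, 204 in Raji chidamide, 14.2 in Raji-4RH DMSO and 28.4 with chidamide in Raji-4RH. CXCL10, an interferon-induced chemokine, had means of 1.49, 199.7, 0.128 and 1.215 FPKM in the same order. Among the 10 genes, the correlation with CIITA ran from 0.90 for CTSS and 0.88 for IRF1 to -0.73 for RFXANK.

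Of 13 MHC class II genes listed, 4 were placed and tested. HLA-DRB5 was below 1 FPKM in every Raji library and was tested only through Raji-4RH, so it enters no count that involves Raji. The other 3 (HLA-DQA1, HLA-DQB1 and HLA-DRB1) were called higher with chidamide in Raji (median log2 change 1.87) and all 4 in Raji-4RH (median 0.97), where 31.5% and 43.3% of all genes were called higher and the medians over all genes were 0.017 and 0.093. HLA-DQA1, an alpha chain, was at 6.28 and 5.81 FPKM in Raji DMSO, 27.6 and 27.4 in Raji chidamide, 9.78 and 9.07 in Raji-4RH DMSO and 20.6 and 20.5 with chidamide in Raji-4RH. Its rise, 2.01 in Raji (standard error 0.060), was the highest of the list there on the log2(FPKM + 1) scale, while as a ratio of group means HLA-DQB1 rose more, 6.08-fold against 4.54-fold. HLA-DQB1, a beta chain, had the highest rise in Raji-4RH on this scale, 1.42, from 13.6 and 14.1 FPKM to 39.6 and 38.1, and in Raji went from 0.940 and 1.13 to 6.44 and 6.17.

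HLA-DRB5 had the lowest rise of the class II genes in Raji-4RH on this scale, 0.62, from 4.19 and 4.83 to 8.40 and 6.64 FPKM, and stayed at or below 0.616 FPKM in Raji. The response was called smaller in Raji-4RH for HLA-DQA1, HLA-DQB1 and HLA-DRB1. With DMSO, these 3 were called higher in Raji-4RH than in Raji (median 0.57, against 41.2% of all genes called higher), while CIITA was lower there. Class II genes have many alleles and near-identical copies between which reads may be split, so these values are uncertain. The other 9, among them HLA-DRA and HLA-DPB1, were not analysed here.

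Among 14 genes of class I molecules and peptide loading, 6 were tested. In Raji-4RH none was called higher and 3 lower, against 43.3% and 31.6% of all genes, and in Raji 2 were called higher and 3 lower, against 31.5% and 28.5%. CALR, a chaperone of the loading complex, had the lowest value in Raji-4RH, falling by 0.65 from 370 and 380 FPKM to 245 and 234. CANX, a chaperone of new heavy chains, fell by 0.16 in Raji-4RH and by 0.52 in Raji, where it was the lowest. ERAP1, which trims peptides in the endoplasmic reticulum, rose by 0.21 in Raji. HLA-B, HLA-C, TAP2 and TAPBP were not analysed here. Of 6 genes of the immunoproteasome and its activator, 3 were tested, 1 called higher and 2 lower in Raji-4RH, against 43.3% and 31.6% of all genes, and 1 higher and 1 lower in Raji, against 31.5% and 28.5%. PSME1 was called higher in both lines (0.16 in Raji and 0.17 in Raji-4RH) and PSME3 lower in both (-0.37 and -0.79), and PSMB8, PSMB9, whose gene shares a promoter region with TAP1, and PSMB10 were not analysed here.

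Among 11 genes of endolysosomal processing, 8 were tested. CTSH in Raji-4RH and CTSB in Raji were below 1 FPKM in every library of the line and are left out of its count. In Raji-4RH 5 of 7 were called higher and 1 lower (median 0.51), against 43.3% and 31.6% of all genes. In Raji 3 of 7 were called higher and none lower (median 0.037), against 31.5% and 28.5%. LGMN, the asparagine endopeptidase that starts invariant chain cleavage, went from 4.07 and 3.82 FPKM to 13.4 and 14.01 in Raji, a rise of 1.57. CTSB, a cysteine protease, rose by 1.29 in Raji-4RH, from 4.56 and 4.44 FPKM to 12.3 and 12.6, and was below 0.7 FPKM in all 4 Raji libraries. SPPL2A, an intramembrane protease that clears the CD74 stub, had the smallest called rise in Raji, 0.27, and CTSC was the gene called lower in Raji-4RH, at -0.17. CTSH, chosen here after its values were seen, stood at 11.8 to 29.5 FPKM in Raji and below 1 FPKM in all 4 Raji-4RH libraries.

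All 10 promoter partners of CIITA and NLRC5 were tested. In Raji-4RH 3 were called higher and 4 lower (median -0.081), against 43.3% and 31.6% of all genes, and in Raji 1 higher and 6 lower (median -0.19), against 31.5% and 28.5%. NFYA, a subunit of the factor that binds CCAAT, rose by 0.45 in Raji-4RH, where SMARCA4, the ATPase of a chromatin remodelling complex, fell by 0.72. In Raji CREB1, which binds the X2 box, was the gene called higher, at 0.16, and ATF1, of the same family, fell by 0.70.

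All 13 genes listed for interferon-gamma signalling and regulation of CIITA transcription were tested. PRDM1, a repressor of CIITA, passed the filter on low values only through chidamide libraries and is left out of the counts, at 0.075 and 0.067 FPKM in Raji-4RH DMSO and 1.25 and 1.16 with chidamide. Of the other 12, 10 were called higher and 1 lower in Raji (median 0.87), against 31.5% and 28.5% of all genes, and 7 higher and 4 lower in Raji-4RH (median 0.56), against 43.3% and 31.6%. The 10 include IRF4 and JAK2, which reached 1 FPKM in Raji only with chidamide, so the Raji count and median rest partly on them. In Raji IRF4 went from 0.498 and 0.572 FPKM to 5.04 and 5.36, and JAK2 from 0.689 and 0.780 to 1.82 and 1.98. JAK1, a kinase of interferon-gamma signalling, had the highest rise in Raji-4RH on the log2(FPKM + 1) scale, 1.11, and rose by 1.01 in Raji. SPI1, a myeloid and B-cell factor, fell by 0.88 in Raji and by 1.18 in Raji-4RH, the lowest of the list in both on this scale.

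Of 5 genes beside CIITA on chromosome 16, 4 were tested, 3 called higher and 1 lower in Raji and 2 higher and 1 lower in Raji-4RH. SOCS1, an inhibitor of the JAK kinases that also belongs to the preceding list, rose by 1.49 in Raji and by 0.94 in Raji-4RH. DEXI, the gene next to CIITA, was called lower in Raji, at -0.27, from 1.03 and 1.10 FPKM to 0.705 and 0.725, below 1 FPKM with chidamide. NUBP1 was called lower in Raji-4RH, at -0.44, and higher in Raji, at 0.30, and CLEC16A was called higher in both lines, at 0.29 in Raji and 0.33 in Raji-4RH. Over all genes 31.5% were called higher and 28.5% lower in Raji, and 43.3% and 31.6% in Raji-4RH. NUBP1 in Raji and CLEC16A were chosen here after their values were seen.

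**Figure D4:**
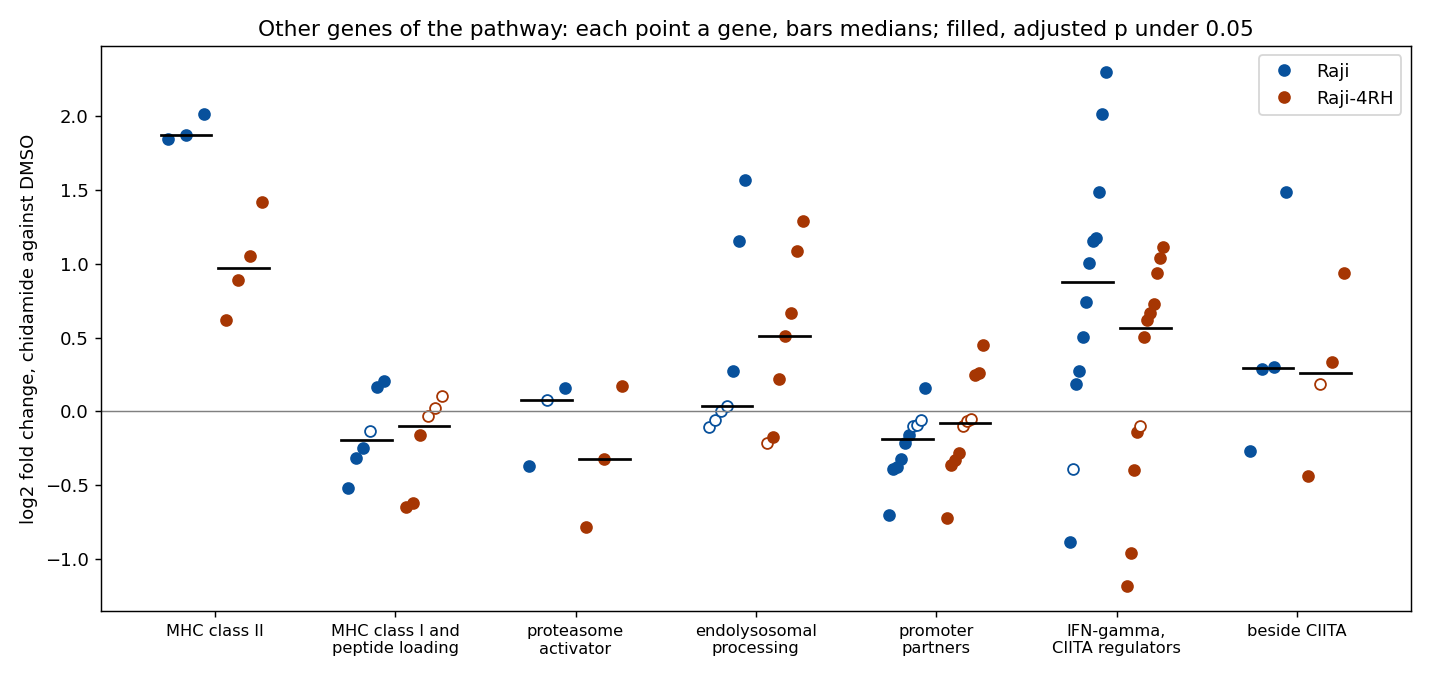
Response of the other genes of the pathway to chidamide. The x axis gives the gene lists, the y axis the log2 fold change of chidamide against DMSO in Raji (blue) and Raji-4RH (brown), each point is a gene, bars are medians, and filled points have an adjusted p under 0.05. Genes are not drawn if they were below 1 FPKM throughout the line, or if only chidamide libraries among all 8 libraries reached 1 FPKM. IRF4 and JAK2, which reached it in Raji only with chidamide but also in Raji-4RH with DMSO, are drawn. With DMSO, JAK2 did so only in Raji-4RH replicate 1. The class II genes drawn lie above 0 in both lines, with medians of 1.87 in Raji and 0.97 in Raji-4RH.

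The B-cell identity of the libraries was checked with 6 markers, all of which were expressed, with summed levels of 1085 to 1126 FPKM in Raji DMSO, 975 to 988 in Raji chidamide, 733 to 773 in Raji-4RH DMSO and 591 to 621 with chidamide in Raji-4RH. All 6 were called lower in Raji-4RH than in Raji with DMSO, against 32.4% of all genes. With chidamide, 2 were called higher and 1 lower in Raji, against 31.5% and 28.5% of all genes. In Raji-4RH 3 were called higher and 2 lower, against 43.3% and 31.6%. The falling sums thus do not describe every marker: CD79A fell from 575 and 537 FPKM to 292 and 288 in Raji, while MS4A1 rose from 53.8 and 58.7 to 129 and 118. Markers of other cell types moved with chidamide. The 6 monocyte, macrophage and dendritic cell markers, cells that also carry class II, summed to 1.03 to 1.08 FPKM in Raji DMSO, 10.7 in both Raji chidamide libraries, 5.75 to 6.75 in Raji-4RH DMSO and 16.7 to 17.2 with chidamide in Raji-4RH. Of these, CSF1R was at most 0.124 FPKM with DMSO and at 4.63 and 5.06 with chidamide in Raji and 2.94 and 3.08 in Raji-4RH. ITGAM went the same way, from at most 0.094 FPKM to between 1.99 and 3.96, LYZ reached 4.13 FPKM only with chidamide in Raji-4RH, CD1C reached 7.37 FPKM in Raji-4RH, and CD14 and CLEC9A stayed below 0.8 FPKM in every library. The 6 T-cell and NK-cell markers summed to 1.39 to 1.72, 3.51 to 4.64, 2.26 to 3.02 and 9.70 to 9.91 FPKM in the same order. In Raji-4RH with chidamide CD3E was at 2.94 and 4.10 FPKM and NKG7 at 5.96 and 4.70, while CD3D, CD3G, CD8A and GNLY stayed below 0.6 FPKM in every library. The 5 stromal and epithelial markers stayed at or below 2.35 FPKM in sum. The part of these shifts in the results above was not tested.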

How the data were processed

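RNA was extracted with TRIzol, prepared with the NEBNext Ultra kit and sequenced by Illumina HiSeq. The submitters' processing notes name HISAT2 2.0.5, SAMtools 1.7, HTSeq 0.9.1 and DESeq2 1.22.2 with hg38. The strand setting of the counting is not given in the sources used here, so reads of overlapping antisense genes cannot be told apart. The deposited table holds FPKM for each gene in each library, and the gene lengths. Its last 662 of 63967 rows repeat the values of the first 662, so labels outnumber values.

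Samples were grouped by their titles. FPKM times length times library total gave whole reads (tolerance 0.01) for 100% of values, and totals were 13991697 to 21193441 reads. For 18143 labels the reads were taken from 0 to 14 rows below the label, as the rule for choosing the genes gives it, and divided by the label's own length. These held 90.7% to 93.2% of the reads of each library. The rule was itself inferred from which labels usually have many reads, so the check of distances is not independent of it. IDs of list genes outside the GENCODE v29 primary annotation were not used.

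Genes that reached 1 FPKM in 2 or more libraries, 10710 in all, were tested with limma 3.58.1 (lmFit, contrasts.fit, eBayes with trend, R 4.3.3) on log2(FPKM + 1), in 1 fit of 4 group means over 8 libraries, for 5 comparisons, with Benjamini-Hochberg adjustment and a threshold of 0.05. The added 1 makes fold changes of low genes too small. The script was tested on simulated data. Python 3.11.15, pandas 2.3.3, numpy 2.4.6 and matplotlib 3.10.9 were used. The genes described and the lists were chosen with earlier results of these data known. Named are the 10 genes, the highest and lowest called gene of each list in each chidamide comparison, the 5 genes most like CIITA, and list genes sharing a promoter or complex with one of the 10. Genes were left out of list counts, medians and the list plot if no library of the groups compared reached 1 FPKM. They were also left out if, over all 8 libraries, only those on 1 side (chidamide or DMSO, Raji-4RH or Raji) reached it. Each group was judged by its higher library, as for JAK2 with DMSO in Raji-4RH. Genes that reached 1 FPKM on both sides only through the other line, such as IRF4, JAK2 and DEXI in Raji, were kept. This choice was made after the data were seen, and PRDM1, IRF4, JAK2 and the markers of other cell types are named for their values. A gene that the naming rule gives is not reported here. Alternatives were another pseudocount, filters, scalings, limma without trend, only the libraries compared, voom on recovered reads, a replicate block, rows as deposited, rows without a shift and each library left out.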

Additional observations from a re-analysis of the deposited data

Results flagged for a closer look

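For 4 of the 10 genes the response to chidamide differed between the lines by a test of the difference itself (limma, adjusted p under 0.05). The effect in Raji-4RH minus that in Raji was -1.23 for CIITA, -0.67 for CD74, -0.40 for CTSS and 0.38 for NLRC5. CIITA, CD74 and CTSS responded less in Raji-4RH and NLRC5 more. When each library was left out, the differences stayed for CIITA between -1.31 and -1.15, for CD74 between -0.73 and -0.61, for CTSS between -0.45 and -0.34 and for NLRC5 between 0.33 and 0.42. After quantile normalization the NLRC5 difference was 0.20 and was not called (adjusted p = 0.073).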

How the results depend on the processing

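Read from the rows as deposited, only 6 of the 10 genes passed the filter, of which 3 were called in Raji-4RH, 2 in Raji and 1 for the difference, and CIITA changed sign, to -0.043 in Raji, 0.070 for the difference, 0.30 for Raji-4RH against Raji with DMSO and 0.37 with chidamide. For CIITA, RFX5 and TAP1 those rows hold the values of other labels. RFXANK, IRF1 and CD74 needed no shift, so their values were the same as those used here. With only the rows that need no shift, fewer genes were tested, and 3326, 2702, 2178, 3258 and 3463 were called in Raji-4RH, in Raji, for the difference, and between the lines with DMSO and with chidamide. Other changes of sign were in values that were not called: RFXANK in Raji-4RH after quantile normalization (0.16) and without a library (range -0.25 to 0.0054); for the difference, RFXAP (range -0.19 to 0.080) and RFXANK (-0.076 to 0.17); with DMSO, CTSS after quantile normalization (-0.00806), after median centring (-0.020) and without a library (range -0.031 to 0.079), and RFXAP (-0.16 to 0.11, 0.017 without Raji DMSO replicate 2). The cause was not tested. Quantile normalization moved the median over all genes in Raji-4RH from 0.093 to -0.022 and the calls there from 4642 higher and 3380 lower to 3718 and 4057. Voom on recovered reads called 8113 genes in Raji-4RH and 6662 in Raji.

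Replicate numbers did not pair the libraries (correlations of replicate differences from -0.28 to 0.17). A replicate block called 8, 8, 4, 8 and 9 of the 10 genes, as without it, and 7886, 6183, 4915, 7748 and 8397 genes in all. A crossed pairing of the DMSO libraries, chosen after seeing the data because that pair correlated at -0.16, called 8 of the 10 and 8037 genes. With 2 libraries per group, small differences such as those of RFX5 and RFXANK changed their call with the setting.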
